A study of Mus musculus with 4 samples.

Results

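The genes of 10 chemokines were followed in the luminal epithelial cells of the mouse mammary gland. The 10 were the rows of the deposited table whose gene symbol was Cxcl15, Cxcl17, Cxcl1, Cxcl2, Cxcl5, Cxcl16, Cxcl12, Ccl20, Ccl28 or Ccl5, out of 52636 genes in all. They were chosen by measured values, because their levels in these cells and the difference between genotypes had been seen in an earlier look at the same table, so their levels and ratios are given here as a description with no test. The cells came from 6-week-old female C57BL/6N mice, either Erbb3+/+;MMTV-Cre (WT) or Erbb3 V943R/V943R;MMTV-Cre (mutant), and both genotypes carried the MMTV-Cre transgene, which drives recombination in mammary epithelium. In the mutant, a floxed WT cassette is removed by Cre and the endogenous locus then expresses ERBB3 with the V943R change, which impairs the ability of ERBB3 to activate a partner kinase. A genotype is 1 pool of glands from 3 mice, from which luminal cells were obtained by enzymatic dissociation, epithelial enrichment and flow sorting. Each pool was sequenced as 2 droplet libraries, so no value below has a biological replicate and no test was made between genotypes. Within each genotype the libraries go by the letters A and B, which pair nothing across genotypes.

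Chemokines are small secreted proteins that attract leukocytes through receptors with 7 membrane-spanning segments. They are sorted into the CXC and CC groups by the spacing of the first cysteines of the mature protein. Cxcl1, Cxcl2 and Cxcl5 encode ligands of CXCR2 and attract neutrophils, and Cxcl15, also called lungkine, is known from airway epithelium. Cxcl12 signals through CXCR4 and is bound by the scavenger ACKR3, Cxcl16 is made as a membrane protein on a mucin stalk that ADAM10 can shed, and Cxcl17 is a mucosal chemokine. Ccl5 attracts T cells and other leukocytes, Ccl20 is the ligand of CCR6, and Ccl28 is known for drawing antibody-secreting cells to the lactating gland.

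The cysteine codons that define these groups are shown first, as stretches of the coding sequence in GENCODE M21 transcripts (GRCm38), 5′ to 3′ on the strand of the gene, with the codons of the first cysteine pair in capitals. They are shown for the members that the results turn on.
Cxcl15, exon 2, chr5:90795210-90795254, plus strand: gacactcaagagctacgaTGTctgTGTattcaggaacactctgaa
Cxcl1, exon 2, chr5:90891478-90891522, plus strand: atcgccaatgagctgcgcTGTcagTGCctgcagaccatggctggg
Cxcl2, exon 2, chr5:90904124-90904168, plus strand: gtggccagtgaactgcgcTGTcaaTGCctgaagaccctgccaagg
Cxcl12, exon 2, chr6:117171490-117171534, plus strand: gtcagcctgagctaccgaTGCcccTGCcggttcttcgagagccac
Cxcl16, exon 2, chr11:70459109-70459153, minus strand: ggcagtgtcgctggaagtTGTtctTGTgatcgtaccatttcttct
Cxcl17, exons 2 and 3, chr7:25402237-25402887, minus strand: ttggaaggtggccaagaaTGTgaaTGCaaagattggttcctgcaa
Ccl5, exon 2, chr11:83529224-83529265, minus strand: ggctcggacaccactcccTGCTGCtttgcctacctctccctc
In the first 6 a single codon separates the pair, and in Ccl5 the codons are adjacent. The Cxcl17 stretch is spliced, so its bases are not contiguous in the genome.

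Cxcl5 (ENSMUSG00000029371), Cxcl15 (ENSMUSG00000029375), Cxcl1 (ENSMUSG00000029380) and Cxcl2 (ENSMUSG00000058427) lie in this order on the plus strand of chromosome 5, at chr5:90759360-90761624, chr5:90794534-90803067, chr5:90891241-90893115 and chr5:90903871-90905938 in GRCm38. The other members that are described lie apart: Cxcl12 (ENSMUSG00000061353) at chr6:117168535-117181367, Cxcl17 (ENSMUSG00000060188) at chr7:25400053-25412886, Cxcl16 (ENSMUSG00000018920) at chr11:70453983-70459984 and Ccl5 (ENSMUSG00000035042) at chr11:83525778-83530518. Cxcl1 and Cxcl2 are close relatives, and their transcripts share an exact run of at most 23 bases, or of 14 bases within the last 500, where a 3′ library is read. Cxcl2 and its other relative Cxcl3 share a run of 110 bases but of only 16 within the last 500. Cxcl3 held 19 UMIs in WT and 14 in the mutant, against 514 and 437 for Cxcl2. A unique molecular identifier (UMI) stands for 1 captured mRNA molecule. The whole of Cxcl17 lies inside the antisense gene 4732471J01Rik. That gene held 94 and 73 UMIs in WT and mutant, and whether the counting used strand is not given in the sources used here.

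The 4 libraries held 6849 to 9627 cells and 30019745 to 38009351 UMIs. The authors' 13 clusters and 3 classes were used: luminal progenitor (LP, clusters 1 and 2), luminal intermediate (LI, cluster 3) and mature luminal (ML, clusters 4 to 11). Their markers followed the labels, with a summed level of the progenitor list of 3758 to 4268 CPM over the libraries in LP and 70.1 to 75.8 in ML, and of the mature list of 7523 to 8130 in ML and 885.8 to 964.9 in LP. CPM is the UMIs of a gene per 1000000 UMIs of the same cells. Cluster 12 carried fibroblast and endothelial genes and cluster 13 leukocyte genes. Of all barcodes, 511 occurred in more than 1 library. The median cell held 3400 UMIs in WT and 3840 in the mutant.

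Over all cells Cxcl15 held 85270 UMIs, Cxcl1 12848, Cxcl17 7976, Cxcl12 5191, Ccl5 4269, Cxcl16 3522, Cxcl2 951 and Cxcl5 121. Ccl20 was met with 13 UMIs and Ccl28 with 3, all 3 in WT, so neither had a level that could be compared at this depth. In WT, Cxcl15, Cxcl17 and Cxcl12 were higher in ML than in LP cells. Cxcl16 stood higher in the progenitors, and so did Cxcl2 by the class total. In WT LI cells Cxcl17 was at 76.4 CPM, a little below the 85.2 of ML. That is above its level in ML clusters 5, 6 and 7 (20.5 to 23.0 CPM). Cxcl15 was at 477.7 CPM in LI against 679.7 in ML. Cxcl12 was at 25.0 and 19.0 CPM in LI of WT libraries A and B, against 34.4 and 36.1 in ML. Cxcl15 was 8.45-fold, Cxcl12 8.12-fold, Cxcl17 6.66-fold and Cxcl1 1.66-fold lower in LP than in ML cells. Cxcl16 was 2.48-fold and Cxcl2 1.86-fold higher in LP. These 6 met the rule used throughout, which is a fold of 1.5 or more, at least 50 UMIs on the higher side, and both libraries of one side beyond both of the other. Of 13367 genes tested between LP and ML in WT, 23.1% were higher and 18.3% lower in LP by the same rule. Since the classes were drawn from the same values, this is a description. Ccl5 was at 4.11 CPM in LP and 8.15 in ML, and Cxcl5 had no UMI in LP. Within WT LP cells, Cxcl2 was at 13.9 CPM in cluster 1 but at 4.53 in cluster 2, on 9 UMIs. For Cxcl2 the WT libraries of ML cluster 6 overlapped those of cluster 1.

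**Figure D1:**
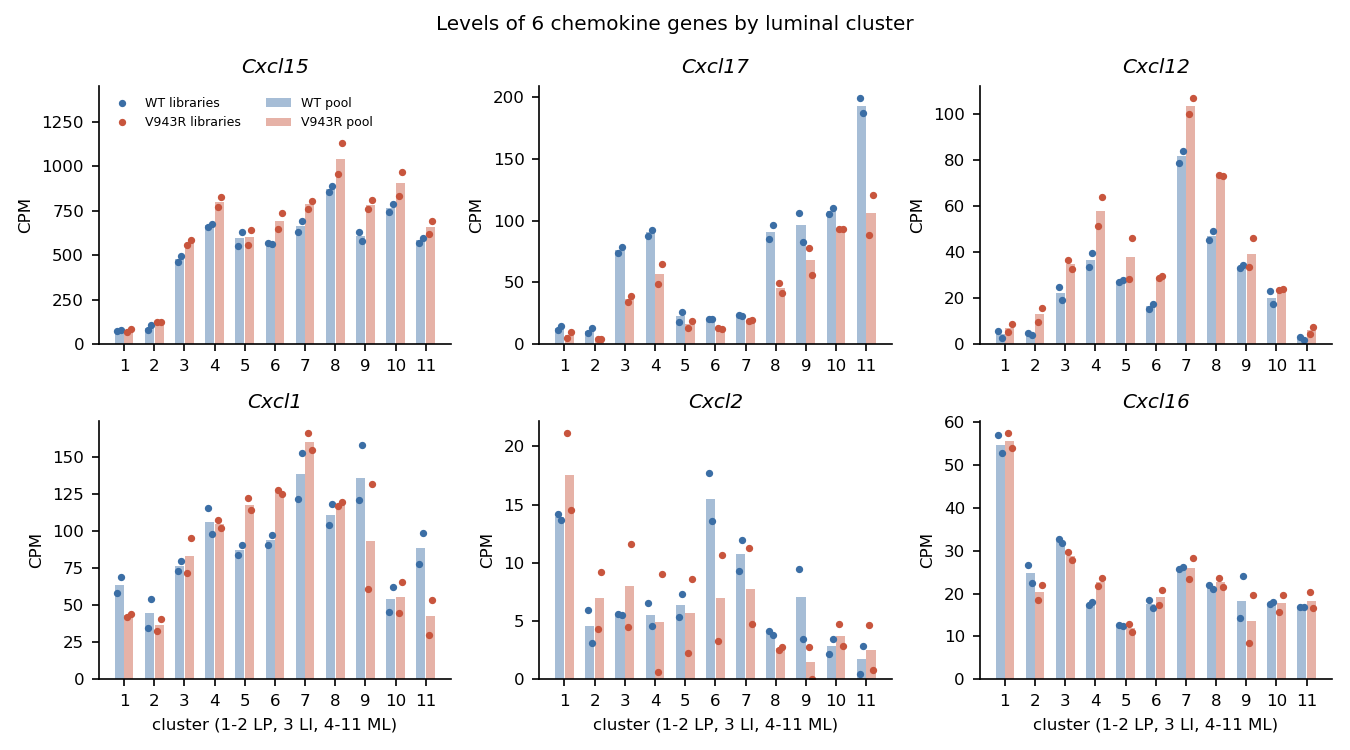
Level (CPM) of 6 members in luminal clusters 1 to 11, with bars for the pooled cells of a genotype and points for its 2 libraries. Cxcl15 is low in clusters 1 and 2 and high elsewhere, Cxcl17 peaks in cluster 11 (192.8 CPM in WT), Cxcl12 in cluster 7 (81.4 CPM in WT), and Cxcl16 in cluster 1 (54.8 CPM in WT).

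Between genotypes, Cxcl12 and Cxcl5 were higher and Cxcl17 was lower in mutant cells. The log2 ratio of Cxcl15 was small and above 0 in each of the 11 luminal clusters, and its libraries did not overlap in 9 of them. Of the 8 members with enough UMIs over all cells, 2 (Cxcl5 and Cxcl12) were higher and 1 (Cxcl17) was lower by the rule, where 3.24% of 16403 genes were higher and 1.18% lower. In ML cells, 2 of 8 (Cxcl5 and Cxcl12) were higher and 2 (Cxcl17 and Ccl5) lower, where 2.88% of 15065 genes were higher and 1.58% lower. In LP cells, 1 of 6 (Cxcl12) was higher and 1 (Cxcl17) lower, where 2.23% of 11219 genes were higher and 0.606% lower. Because the members were chosen with this contrast known, nothing is read from these counts. The median log2 ratio of mutant over WT was 0.10 over the 8 members in all cells, 0.08 over the 6 in LP and 0.16 over the 8 in ML. Over all genes tested it was 0.02, 0.02 and 0.00. These medians average changes of opposite sign in members chosen by this contrast, so nothing is read from them either.

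Cxcl15 was the member seen in most cells. In ML cells it stood at 663.6 and 694.5 CPM in WT libraries A and B and at 768.7 and 853.4 in mutant libraries A and B. Both mutant libraries were above both WT libraries, but the ratio was small, with a log2 of 0.26 (95% counting interval 0.24 to 0.28, exact conditional binomial), and did not reach 1.5-fold. In LI cells it was at 459.8 and 496.3 against 558.3 and 583.4 CPM, again without overlap, with a log2 ratio of 0.26. The gene was higher in the mutant in 11 of the 11 luminal clusters and its libraries did not overlap in 9 of them, and the log2 ratios ran from 0.03 in cluster 5 to 0.43 in cluster 2. Clusters 1 and 2 are the LP clusters, where its level was low, and the ML clusters ran from 0.03 to 0.36. In cluster 1 the log2 ratio was 0.05, with overlapping libraries and an interval (-0.13 to 0.23) that includes 0. Of 9688 genes with at least 1000 UMIs, 5.3% were higher in the mutant in all 11 clusters and 2.42% were lower. The share without overlap of libraries in single clusters was not computed.

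Within ML cells Cxcl15 differed among clusters. Cluster 8 was highest in WT (870.6 CPM), followed by cluster 10 (765.0), then clusters 4 (669.5) and 7 (665.0), whose libraries overlapped. Clusters 9, 5, 11 and 6 followed between 610.1 and 565.9 CPM, each overlapping the one before it in this order, and LI cells stood below them at 477.7. The genes whose log2 levels over the 11 clusters of both genotypes were most like those of Cxcl15 were Pgr, the progesterone receptor (Pearson r = 0.99 over 22 points), Avpi1 (0.99) and Acsbg1 (0.98), out of 9688 genes. The 22 points share libraries and include the LP clusters, where Cxcl15 was low. Over the ML clusters alone r was not computed for these genes, or for those named with other members below. This is a description.

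In LP cells Cxcl15 stood at 75.8 and 84.5 CPM in WT and at 83.0 and 95.8 in the mutant, and the genotypes overlapped. In cells reduced to 1000 randomly drawn UMIs each (thinned cells), 4.86% of WT LP cells had a Cxcl15 UMI (95% Clopper-Pearson interval 4.13% to 5.67%), against 45.2% of ML cells (44.4% to 46.0%). In the non-luminal clusters the shares were 9.30% (4 of 43 cells) in cluster 12 and 14.5% (12 of 83) in cluster 13. These clusters were no blank in WT, because the mature luminal list summed to 1599 and 2299 CPM in the WT libraries of cluster 12 and to 1684 and 3463 in those of cluster 13, above the 908.5 and 953.6 of WT LP. Expression of Cxcl15 in LP cells therefore cannot be told apart from RNA of other cells by these shares. In the mutant libraries of cluster 12 the mature list was lower, at 360.3 and 356.0 CPM. Before thinning, 11.7% of WT LP and 81.5% of WT ML cells had a Cxcl15 UMI, at median depths of 2018 and 3508 UMIs, and the median cell of clusters 12 and 13 had 1985 and 1899.

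**Figure D2:**
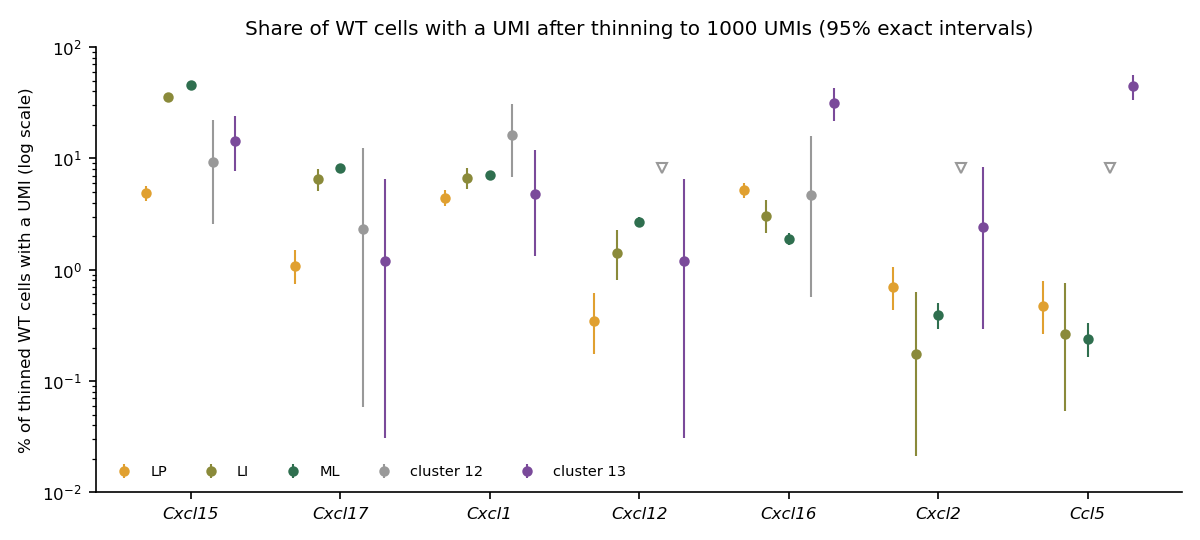
Share of WT cells (%, log scale) with a UMI of 7 members after thinning to 1000 UMIs, in LP, LI and ML cells and in clusters 12 and 13, with 95% exact intervals. Open triangles mark the upper limit where no cell had a UMI. The LP share of Cxcl15 (4.86%) lies below those of clusters 12 and 13 (9.30% and 14.5%). For Cxcl17 (1.08% in LP) and Cxcl12 (0.349%) the cluster 13 share is 1 of 83 cells, and cluster 12 had no Cxcl12 UMI in 43 thinned cells. Ccl5 is found in 44.6% of cluster 13 cells.

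Cxcl17 was lower in mutant cells. In ML cells it stood at 85.2 CPM in both WT libraries and at 44.4 and 47.5 in mutant A and B, so that the genotypes lay far apart and the libraries of each agreed closely. The log2 ratio was -0.89 (-0.96 to -0.81). LI cells showed 74.1 and 78.7 against 34.1 and 38.9 CPM, a log2 ratio of -1.07 (-1.28 to -0.86). The gene was lower in the mutant in 11 of 11 luminal clusters, and its libraries did not overlap in 10 of them. Of 9688 genes with at least 1000 UMIs, 2.42% were lower in all 11. The share of genes without overlap in single clusters was not computed. In cluster 2 Cxcl17 held only 22 UMIs in WT and 9 in the mutant. The antisense neighbour of Cxcl17, 4732471J01Rik, stood at 1.34 and 1.09 CPM in WT and mutant ML cells.

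The level of Cxcl17 differed widely among ML clusters. It was highest in cluster 11, with 199.0 and 187.1 CPM in WT and 88.2 and 121.0 in the mutant. Clusters 10 (107.9 CPM in WT), 9, 8 and 4 formed a middle group down to 90.5, in which the WT libraries of cluster 9 overlapped those of the other 3, and those of clusters 8 and 4 overlapped. Clusters 7, 5 and 6 were low, at 23.0, 22.5 and 20.5. The ratio also varied. The log2 ratio was -0.86 in cluster 11, -0.99 in cluster 8 and -0.67 in cluster 4, but -0.21 in cluster 10 and -0.26 in cluster 7, where the interval reached 0.01. Cluster 11 held 32.8% of the Cxcl17 UMIs of WT, and its cells were 2863 of 18638 in WT and 670 of 13801 in the mutant. With the cluster make-up of ML cells fixed to that of WT, the log2 ratio of Cxcl17 was -0.62, which is still past 1.5-fold.

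Mapre2, which encodes a microtubule end-binding protein, had the cluster pattern most like that of Cxcl17 (Pearson r = 0.96 over 22 points), before Gm12873 and Nat8f1 (both 0.94). In LP cells Cxcl17 met the rule, at 10.7 and 14.7 CPM in WT and 5.06 and 8.46 in the mutant, with a log2 ratio of -0.89. Without WT library B the ratio was -0.62, still past 1.5-fold, and the call was lost because WT library A held 43 UMIs, fewer than 50. The share of thinned WT LP cells with a UMI was 1.08% (0.749% to 1.51%), beside 1.20% (1 of 83 cells) in cluster 13 and 2.33% (1 of 43) in cluster 12, and 8.15% in ML. With 1 cell behind each of these shares, in clusters that held mature luminal RNA, the LP level of Cxcl17 cannot be told apart from background, and whether its change is one of expression in LP cells was not tested.

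Cxcl12 moved the other way. In ML cells it stood at 34.4 and 36.1 CPM in WT and at 54.5 and 60.4 in the mutant, with no overlap and a log2 ratio of 0.71 (0.62 to 0.79). In LI cells it stood at 25.0 and 19.0 against 36.4 and 32.8 CPM, a log2 ratio of 0.65 (0.37 to 0.94). It was higher in 11 of 11 luminal clusters, without overlap of libraries in 9. Of 9688 genes with at least 1000 UMIs, 5.3% were higher in all 11. The share of genes without overlap in single clusters was not computed. Some clusters held few Cxcl12 UMIs. WT and mutant had 9 and 26 in cluster 2, 24 and 26 in cluster 9, and 23 and 15 in cluster 11. Of the fibroblast list, 1 of 7 genes was tested in ML cells, Dcn, which was lower past the rule (14.3 and 12.9 CPM in the WT libraries, 4.33 and 3.58 in the mutant ones), and over all cells Col3a1 was higher and Dcn lower. Both were named after their values were seen, and their part in the Cxcl12 result was not tested. The share of thinned ML cells with a Cxcl12 UMI was 2.70% in WT (2.44% to 2.98%) and 4.17% in mutant cells (3.78% to 4.59%).

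Cluster 7 was the highest for Cxcl12, at 78.7 and 83.8 CPM in WT and 99.6 and 106.6 in the mutant, and held 41.5% of its WT UMIs. Clusters 8 (46.9 CPM in WT), 4 (36.7), 9 (33.7), 5 (27.5), 10 (20.2) and 6 (16.4) followed in this order. The libraries of clusters 4 and 9 overlapped. Cluster 11 was the lowest ML cluster, with 3.13 and 1.82 CPM in WT and 4.64 and 7.52 in the mutant. The log2 ratio was 0.83 in cluster 6, 0.65 in cluster 4 and 0.64 in cluster 8, but 0.34 in cluster 7 and 0.24 in cluster 10. With the cluster make-up fixed to WT, the ratio in ML cells fell to a log2 of 0.48, below 1.5-fold, so that the call in ML and in all cells was lost, while its direction held. The cluster patterns most like that of Cxcl12 were those of Pcp4 and Igsf5 (both Pearson r = 0.98 over 22 points) and Vstm2b (0.92).

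In LP cells Cxcl12 rested on 37 UMIs in WT and 74 in the mutant. It stood at 5.70 and 3.12 CPM against 6.33 and 10.4, and the log2 ratio of 0.97 (0.39 to 1.58) met the rule. The call was lost without WT library B (log2 ratio 0.58) and without mutant library B (0.54). It was also lost without mutant library A, where fewer than 50 UMIs were left. Without the shallowest 10% or the deepest 6% of cells of every library the log2 ratio was 0.82 or 0.67, still past 1.5-fold, but the other parts of the rule were not all met. The thinned share was 0.349% of WT LP cells (0.175% to 0.624%) and 0.814% of mutant LP cells (0.522% to 1.21%). In cluster 13 it was 1.20% in WT (1 of 83 cells, 0.0305% to 6.53%) and 1.30% in the mutant (1 of 77), and in cluster 12 there was none in 43 WT cells and 1 in 33 mutant cells, so these few cells set no background level. Before thinning, clusters 12 and 13 held 1 Cxcl12 UMI each in WT. In the mutant they held 6 of 69820 and 8 of 235424 UMIs. Whether the LP level of Cxcl12 is more than RNA of other cells was not tested.

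**Figure D3:**
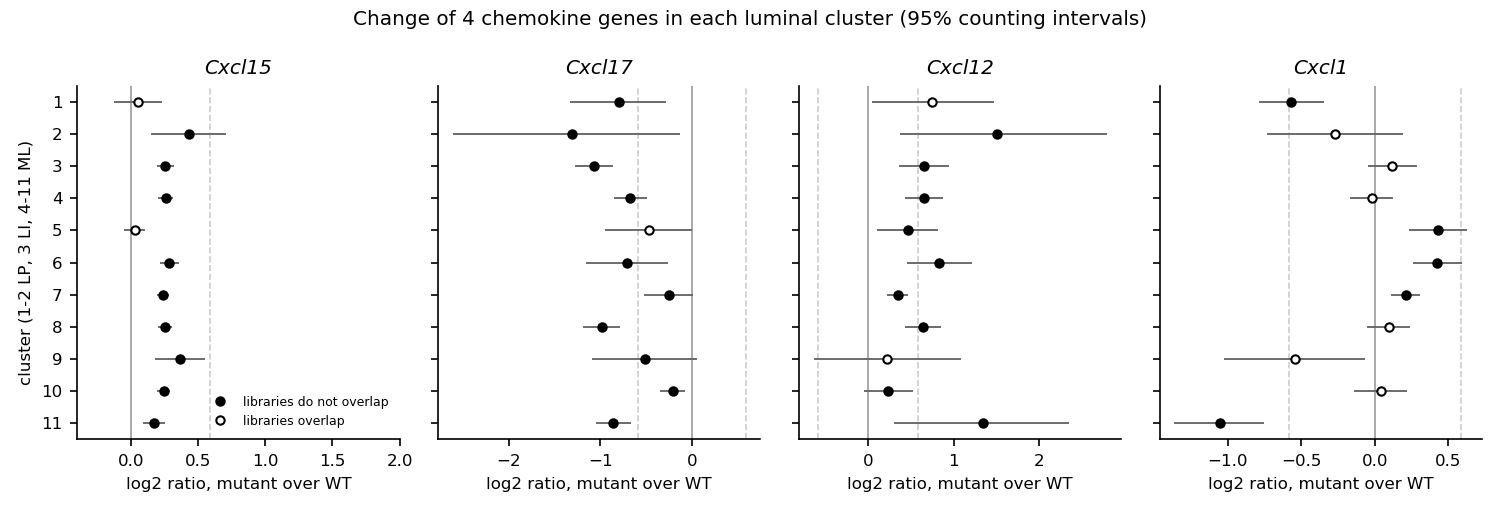
Log2 ratio of mutant over WT in luminal clusters 1 to 11 for 4 members, with 95% counting intervals. Filled points mark clusters whose mutant libraries do not overlap the WT libraries, and dashed lines mark 1.5-fold. Cxcl15 and Cxcl12 are above 0 and Cxcl17 is below 0 in all 11 clusters, whereas Cxcl1 is at 0.43 in clusters 5 and 6 and at -1.05 in cluster 11.

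Cxcl12 and Cxcl17 were found in different ML cells more often than the share over all cells would give. Of 383 thinned WT ML cells with a Cxcl12 UMI, 14 (3.66%) also had a Cxcl17 UMI, against 8.15% of all WT ML cells. In the mutant, 7 of 398 (1.76%) did, against 4.75%. The same held inside a cluster that has both: in cluster 4, 2 of 58 WT cells (3.45%) against 8.20%, and in cluster 8, 2 of 63 (3.17%) against 6.78%, with few cells behind each. Cxcl15 showed the opposite, being found in 56.7% of the WT ML cells with Cxcl12 against 45.2% of all. Cells of a pool are not replicates, and no test was made.

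**Figure D4:**
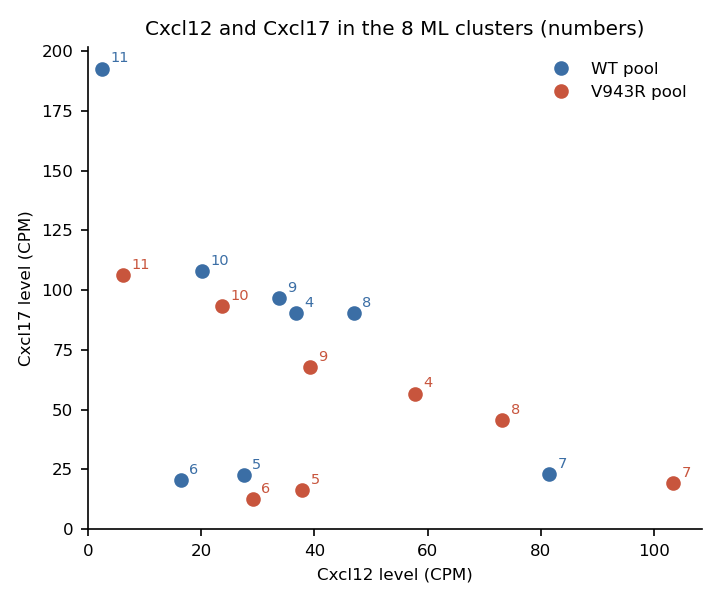
Level of Cxcl17 against level of Cxcl12 (both CPM) in the 8 ML clusters, numbered, for the WT and mutant pools. Cluster 11 is high in Cxcl17 (192.8 CPM in WT) and low in Cxcl12 (2.45), cluster 7 the reverse (23.0 and 81.4), and clusters 5 and 6 are low in Cxcl17 as well as below cluster 8 in Cxcl12.

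Among the ligands of CXCR2, Cxcl1 and Cxcl2 each differed between classes in the direction of their change, and opposite to each other. In LP cells Cxcl1 stood at 52.3 and 65.6 CPM in WT and at 39.7 and 43.1 in the mutant, lower without overlap, with a log2 ratio of -0.51 (-0.71 to -0.31). In ML cells it stood at 91.0 and 104.9 in WT and at 111.5 and 113.4 in the mutant, higher without overlap, with a log2 ratio of 0.19 (0.14 to 0.25). Neither reached 1.5-fold, and the difference between the classes was not tested. Of all genes tested, 18.1% were lower in LP and 27.7% higher in ML without overlap, at any fold. The LP share of thinned cells with a Cxcl1 UMI, 4.41% (3.72% to 5.19%) in WT, lay close to the 4.82% (4 of 83) of cluster 13 and below the 16.3% (7 of 43) of cluster 12, which were no blank. The gap of 1.66-fold between LP and ML cells of WT was smaller than those of Cxcl15, Cxcl17 and Cxcl12 (6.66-fold to 8.45-fold).

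The Cxcl1 ratio in ML cells was an average over clusters that differed. Clusters 5, 6 and 7 were higher in the mutant without overlap, with log2 ratios of 0.43, 0.43 and 0.21. Clusters 4, 8 and 10 had overlapping libraries and ratios from -0.02 to 0.09. Cluster 9 stood at 136.0 and 93.5 CPM with overlapping libraries. Cluster 11 was lower, at 77.6 and 98.9 CPM in WT and 29.7 and 53.4 in the mutant. The log2 ratio of -1.05 (-1.36 to -0.76) in cluster 11 passed the rule. The share of all genes past the rule in single clusters was not computed, so nothing is read from this call. Among luminal clusters, cluster 7 was the highest for Cxcl1 in WT and mutant (138.3 and 160.0 CPM), and in WT its libraries overlapped those of cluster 9. With the cluster make-up of ML cells fixed to WT, the log2 ratio was 0.04. The pattern over clusters most like that of Cxcl1 was that of Pstpip1 (Pearson r = 0.86), followed by 1810010D01Rik (0.82) and Ndst4 (0.81).

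Cxcl2 stood at 12.1 and 11.4 CPM in WT LP cells and at 17.2 and 13.3 in mutant LP cells, higher without overlap, with a log2 ratio of 0.36 whose counting interval (-0.02 to 0.75) includes 0. In ML cells it stood at 5.97 and 6.61 against 4.92 and 5.48, lower without overlap, with a log2 ratio of -0.27 (-0.52 to -0.03). Both Cxcl2 intervals are too narrow, because its UMIs were held by few cells, as given below. Without overlap at any fold, 23.1% of all genes tested were higher in LP and 26.8% lower in ML. Cxcl2 passed the rule in cluster 6 only, at 17.7 and 13.5 CPM in WT and 3.26 and 10.6 in the mutant. Mutant library B lay closer to WT than mutant library A did, and the call was not checked without mutant library A. The share of all genes past the rule in this cluster was not computed. The Cxcl2 UMIs came from few cells. In WT LP cells, 45 of 3181 cells held all 100 Cxcl2 UMIs, and the top 1% of cells held 87.0% of them. After thinning, the variance of Cxcl2 UMIs over their mean was 3.08 in WT LP and 1.85 in WT ML cells, and that of Cxcl1 was 1.96 in both, where 1 is the value for independent draws. For Cxcl16 it was 1.03 and 1.02, and for Cxcl15 1.10 and 1.20. Where this value is well above 1, as for Cxcl2 and Cxcl1, the counting interval of a ratio is too narrow.

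The promoters of Cxcl1 and Cxcl2 hold NF-kB-like motifs. In the RefSeq promoter table (GRCm38.p6), which has 6 of the 10 members, the letters GGG, then any 3 bases, then TTCC were searched on both strands of the 300 bases around each start. They were found in Cxcl1, Cxcl2 and Ccl20 and not in these windows of Cxcl15, Cxcl12 and Ccl28, and 5.56% of 32851 promoters held them. The shared site is shown in capitals, on the plus strand.
Cxcl1, chr5:90891159-90891198, plus strand: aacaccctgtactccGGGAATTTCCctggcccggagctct
Cxcl2, chr5:90903787-90903826, plus strand: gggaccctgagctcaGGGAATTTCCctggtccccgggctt
The match begins 71 bases before the start of Cxcl1 and 97 bases before that of Cxcl2. On the opposite strand the motif also matches 1 base further on, overlapping this site, and each promoter holds 1 more match, at 89 bases in Cxcl1 and 78 in Cxcl2. A match is a description and not evidence of binding.

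Of the 26 listed genes of the NF-kB and IL-17 response, 20 were tested in LP cells, where Tnfaip3, a feedback inhibitor of NF-kB, was lower past the rule (12.6 CPM in WT, 7.03 in mutant cells) and none was higher. In ML cells 21 were tested, of which Tnf was lower (11.2 to 6.68 CPM) and none was higher. The median log2 ratio of the list was -0.07 in LP and -0.11 in ML, beside 0.02 and 0.00 over all genes. Of the 14 listed genes of dissociation stress, none was lower past the rule in LP or ML cells, and Hspa1b was higher in LP (5.40 CPM in WT, 8.18 in mutant cells). Both mutant libraries were below both WT libraries for 13 of the 14 in LP and 11 in ML, and above them for 1 in each. Of all genes tested, 18.1% were lower and 23.1% higher in this way in LP, and 26.8% lower and 27.7% higher in ML. The median log2 ratio of the list was -0.26 in LP and -0.24 in ML. Its summed level was 32046 and 33021 CPM in WT against 26116 and 26307 in mutant LP cells, and 25002 and 25678 against 20842 and 21489 in ML cells. The part of these genes in the changes of Cxcl1 and Cxcl2 was not tested.

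Cxcl5 was a rare transcript. It held 28 UMIs in WT ML cells and 75 in the mutant. That is 0.552 and 0.439 CPM in WT libraries A and B against 2.01 and 1.31 in mutant A and B, with no overlap and a log2 ratio of 1.74 (1.09 to 2.42). Clusters 7, 8 and 10 held 22, 20 and 21 of the mutant UMIs, and 2, 2 and 7 of those of WT. Clusters 4 and 6 did not follow, with 4 and 1 of the mutant UMIs and 5 and 6 of those of WT (log2 ratios of the levels -0.07 and -2.55). In ML, 1 mutant cell held 10 of the 75 UMIs. Leaving out 1 library at a time gave log2 ratios from 1.41 to 2.02. Without either mutant library the call was lost because the other held 44 or 31 UMIs, fewer than 50. No UMI was found in 3181 WT and 3123 mutant LP cells, which allows shares of cells with a UMI of up to 0.0943% and 0.0961%, nor in clusters 12 and 13.

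Cxcl16, the membrane-bound chemokine, did not pass the rule in any class. In LP cells it stood at 49.6 and 46.2 CPM in WT and 48.3 and 46.7 in the mutant, with overlapping libraries and a log2 ratio of -0.01 (-0.21 to 0.19). In ML cells it stood at 19.2 and 19.3 against 19.8 and 21.95, apart by a small margin, with a log2 ratio of 0.12 (-0.01 to 0.25). A Cxcl16 UMI was found in 5.14% of thinned WT LP cells (4.40% to 5.97%), 3.06% of LI cells and 1.90% of ML cells, and in 31.3% of the cells of cluster 13. Among luminal clusters it was highest in cluster 1 (54.8 CPM in WT), above cluster 3 (32.3), and lowest in cluster 5 (12.5). Its level in cluster 13 was 381.1 CPM in WT and 335.6 in the mutant. The patterns over luminal clusters most like it were those of Lats2 (Pearson r = 0.93 over 22 points), Trib1 and Pxdc1 (both 0.92). Adam10, which encodes the protease that can shed CXCL16, stood at 49.6 and 50.3 CPM in WT and mutant LP cells and 147.8 and 157.4 in ML cells, and Adam17 was at 19.1 and 19.7 in LP and 15.2 and 16.4 in ML. None of the 2 tested of the 3 listed processing genes passed the rule in either class.

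Ccl5 belonged mainly to the few cells of cluster 13, which held 80.5% of its WT UMIs. A Ccl5 UMI was found in 39 of 83 WT and 32 of 81 mutant cells of this cluster, and 37 and 28 of them held 10 or more, up to 182. Its level was 6396 and 9174 CPM in WT A and B, against 5222 and 5607 in mutant A and B, lower in the mutant without overlap, with a log2 ratio of -0.64 (-0.74 to -0.54). This interval is too narrow, because the variance over the mean of thinned UMIs per cell was 34.7 in WT and 32.1 in the mutant. Cells with a UMI were 11 of 30 and 28 of 53 in WT A and B. In mutant A and B they were 17 of 44 and 15 of 37, so these shares overlapped. The leukocyte list of this cluster summed to 24088 to 34508 CPM over the libraries with 13 of 19 genes found. Cd3e, Cd3d, Nkg7, Csf1r, S100a8 and S100a9 were at 0, and Ccr7 (657.5 CPM in WT) and Ccl22 (467.0) were high. Over all cells WT library B (56.5 CPM) stood above WT library A (18.6) and the mutant libraries (24.3 and 22.9), and without WT library B the log2 ratio turned from -0.70 to 0.34. WT library B held 53 of the 83 WT cells of cluster 13.

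Outside cluster 13, Ccl5 in ML cells stood at 4.57 and 11.4 CPM in WT and 4.19 and 2.19 in the mutant. The log2 ratio of -1.37 (-1.65 to -1.10) met the rule, but WT library A lay just above mutant library A. Its interval is also too narrow, with a variance over the mean of 18.6 in WT and 2.14 in mutant ML cells. By cluster, the rule was met in clusters 7 (10.7 CPM in WT, 2.14 in mutant cells), 8 (13.6 and 1.92) and 11 (12.8 and 1.66), while cluster 4 stood at 8.62 and 10.3 CPM with overlapping libraries. In WT, 1 cell held 66 of the 120 Ccl5 UMIs of cluster 7. In the same way 1 cell held 34 of the 93 of cluster 8, and 1 held 87 of the 120 of cluster 11. The share of all genes past the rule in these clusters was not computed. Most of the Ccl5 difference came from a few cells. In all, 15 cells outside cluster 13 (11 WT and 4 mutant) held 10 or more Ccl5 UMIs, and 12 of them were ML cells. In WT library B, 5 cells held 237 of the 366 Ccl5 UMIs outside cluster 13, and 1 of them held 87. Leaving such cells out was decided on after seeing these values, and the log2 ratio in ML cells then was -0.52, under 1.5-fold. Without WT library B it was -0.53. The 15 cells held no Ptprc UMI, but the 65 cells of cluster 13 with as much Ccl5 held only 6. Cd74 in the 15 cells stood at 29.1 CPM, against 4.70 in the other cells outside cluster 13 and 2831 in those 65 cells, and the leukocyte list summed to 67.9 CPM in the 15 cells, against 21.4 in the other cells outside cluster 13 and 4792 in those 65 cells. Of the 5 leukocyte genes tested in ML cells, Trbc2, a T cell receptor constant gene, was lower past the rule (WT libraries 6.92 and 7.12 CPM, mutant libraries 3.88 and 4.47) and Cd74 was higher (1.69 and 2.83 against 5.33 and 3.16). Over all cells Fcer1g was higher and Trbc2 lower. These genes were named after their values were seen, and their part in the Ccl5 result was not tested. The share of thinned ML cells with a Ccl5 UMI was 0.240% in WT (0.166% to 0.335%) and 0.241% in mutant cells (0.153% to 0.362%).

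Other chemokine ligands were mostly low. Of 27 listed ones with 1 row each, 10 were tested over all cells, where Ccl6 (0.561 to 1.17 CPM) and Ccl9 (0.383 to 1.06) were higher and Ccl22 (1.83 to 0.929) was lower by the rule. Many of these UMIs lay in the few cells of cluster 13, which held 125 of the 134 WT and 54 of the 58 mutant UMIs of Ccl22, 12 of 41 and 32 of 73 of Ccl6, and 16 of 28 and 32 of 66 of Ccl9. Outside cluster 13 none of the 3 held enough UMIs to be tested. In ML cells 0 of 4 tested passed the rule and in LP cells 0 of 1. Cx3cl1, a second membrane-bound chemokine, stood at 44.6 and 40.6 CPM in WT and mutant LP cells and at 16.1 and 13.1 in ML cells. Cxcl13 was at 11.4 and 11.1 CPM in ML cells, Cxcl10 at 5.58 and 4.88, and Ccl25 at 5.27 and 4.93. Ccl2, Ccl4, Ccl7, Ccl8, Ccl17, Cxcl9 and Cxcl14 each held between 59 and 151 UMIs over all cells, and Ccl27a, which has 3 rows in the table, held 428.

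Of the 24 listed receptors, 5 were tested over all cells and none passed the rule. Cxcr4, the receptor of CXCL12, stood at 13.3 and 16.8 CPM in WT and mutant LP cells and at 3.42 and 3.02 in ML cells. Ackr3, its scavenger receptor, was at 16.3 and 14.9 CPM in LP cells, and in WT it stood at 0.68 CPM or less in each of the ML clusters. The LP level of the ligand Cxcl12 was 4.34 CPM in WT, against 35.3 in ML. Ccrl2, an atypical receptor, was at 44.2 and 38.0 CPM in LP and 1.76 and 1.248 in ML cells. Ccr7 had 176 of its 185 WT UMIs in cluster 13, Ackr4 was highest in cluster 12 (311.9 CPM in WT), and Cx3cr1 held 46 UMIs in each genotype.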

How the data were processed

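Luminal cells were profiled on the 10x Chromium 3′ v2 platform. What the authors deposited is a signal: UMIs scaled by 1 factor per cell, for 52636 genes and 32439 cells. The submitters' processing notes name CASAVA 1.8, bcl2fastq 2.20, GSNAP 2013-10-10 and GRCm38, and clusters came from Seurat in Partek Flow at a resolution of 0.6. UMIs were recovered here by expressing every value in units of a cell's lowest nonzero one. Within 0.02, 100% of 60853305 nonzero values were whole. Summed UMIs are given per 1000000 UMIs (CPM). Levels have exact Poisson intervals and ratios exact conditional binomial ones, at 95% and for counting error only. They are too narrow for genes whose UMIs vary more between cells than independent draws. Because the clusters were drawn from the same values, they are compared as a description.

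The table gives no replicate number for a library, and no p-value was computed. No cell was left out and no doublet caller was run, and leaving out the 6% of cells with the most UMIs was an alternative. Thinning to 1000 UMIs (seed 1) left out 32 WT and 173 mutant LP cells, and 12 and 74 ML cells. The genes named were the 10 members, other ligands and receptors with at least 50 UMIs, up to 3 genes in each direction past the rule from the lists of NF-kB and IL-17 response, dissociation stress and chemokine processing, and for members with at least 1000 UMIs the 3 genes most like them on the log2(CPM + 1) scale. Outside this selection, Cxcl3, Adam10, Adam17, the antisense neighbour of Cxcl17 and genes of the leukocyte and fibroblast lists were also named. Members, lists and rules were chosen with earlier results of these data known. Listed symbols with several rows (Ccl19, Ccl21a, Ccl21b, Ccl27a, Itgam) were left out of list counts. Versions were Python 3.11.15, matplotlib 3.10.9, scipy 1.17.1, pandas 2.3.3 and numpy 2.4.6.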

Additional observations from a re-analysis of the deposited data

Results flagged for a closer look

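The ratios of Cxcl1 had opposite signs in the 2 main classes. Its log2 ratio of mutant over WT was -0.51 in LP and 0.19 in ML cells, a difference of 0.71 (ML minus LP), and every mutant library lay below both WT libraries in LP and above both in ML. Neither reached 1.5-fold. The ML value was 0.04 with the cluster make-up fixed to WT, and ML cluster 11 was at -1.05. Cxcl2 had the reverse signs, with 0.36 in LP (interval -0.02 to 0.75) and -0.27 in ML cells, a difference of -0.64. These differences were not tested, because each genotype was 1 pool. Of all genes tested, both mutant libraries lay below both WT libraries for 18.1% in LP and 26.8% in ML. They lay above for 23.1% in LP and 27.7% in ML. The share of genes apart in opposite directions in the 2 classes was not computed, so nothing is read from these members being flagged.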

How the results depend on the processing

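With a fold of 2, 1 member passed the rule in all cells (Cxcl5), 0 in LP and 2 in ML cells (Cxcl5 and Ccl5), in place of 3, 2 and 4. In LP cells 4 members passed at a lower fold (0.32 on the log2 scale), 0 with at least 200 UMIs and 1 without the 6% of cells with the most UMIs. Leaving out 1 library at a time gave 2 to 4 members in all cells, 0 to 3 in LP (0 without WT library B) and 3 to 4 in ML. Of all genes, 725 passed in all cells, 318 in LP and 672 in ML. These counts became 1371, 845 and 1298 with at least 20 UMIs, 216, 46 and 200 with at least 200 UMIs, 2716, 1360 and 2556 at that lower fold, and 108, 28 and 113 at a fold of 2. Without 1 library they ran from 595 to 1008, 255 to 500 and 556 to 928. Ccl5 in LP over ML cells of WT (log2 ratio -0.99) was at 0.044 without WT library B and at -1.68 without WT library A. With the cluster make-up fixed to WT, Cxcl12 was no longer past the rule in all or in ML cells. The cause was not tested. Clusters 1 to 11 alone, an alternative added after seeing the data, brought Ccl5 into the calls over all cells, and leaving out barcodes found in more than 1 library, also added, changed no member's call in LP or ML. No paired analysis was possible because the table gives no replicate number for its libraries. Depth limits Ccl20, Ccl28, Cxcl5 and all members but Cxcl15, Cxcl1 and Cxcl16 in LP cells.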
